A study of Mus musculus with 12 samples.

Results

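The ribosome footprints and the mRNA of Ba/F3 cells with normal RPL10 were compared gene by gene within 3 clones. Of the 12 libraries of the series, 6 entered this comparison, namely 1 ribosome footprinting library (RPF, ribosome-protected fragments) and 1 mRNA-Seq library from each of the WT clones 28, 29 and 36, chosen by genotype and joined by clone number. The 2 tables shared 10080 genes, of which 9993 had annotated lengths and 9418 reached a mean of 10 normalized counts in both assays. Each of the 10080 had footprint counts in every footprint library of the series. Genes without footprints in some library were therefore not listed, and mRNAs with the fewest footprints can be missing here. Ba/F3 is an IL-3 dependent mouse lymphoid line. All its clones here, WT and R98S alike, expressed human RPL10 from a retroviral vector while the endogenous Rpl10 was knocked down by a short hairpin RNA. The WT clones carried the unmutated human protein, and the other 6 libraries came from the R98S clones 11, 13 and 35, in which arginine 98 of RPL10 is a serine. For both assays and in both genotypes, cells received cycloheximide, which blocks elongation, for 5 min at 100 µg/ml. Each line was 1 clone of 1 cultured cell line, so the values describe Ba/F3 cells. The p-values rest on the spread among 3 clones, moderated over genes as described below.

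A translating ribosome shields the stretch of mRNA it covers from nuclease, so footprints on a coding sequence count the ribosomes that were translating it. An mRNA that starts translation rarely, or is held outside polysomes, carries few footprints for its abundance, and an mRNA that loads ribosomes often carries many. Known switches of this kind lie mostly before the start codon: the 5′ terminal oligopyrimidine tract (TOP) of ribosomal protein mRNAs, the iron-responsive element of ferritin mRNAs and upstream open reading frames (uORFs). Translational efficiency (TE) was taken here as the log2 ratio of footprint density, per kb of counted coding sequence, to mRNA density, per kb of exon, relative to the median gene of the clone, so a TE of 1 is 2-fold above that gene in footprints per mRNA. A log2 value below 0 is a density ratio under that of the median gene. Values of 3 libraries or clones are given in the order 28, 29 and 36, and errors are SDs over the 3 clones (n = 3) unless called SE.

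The footprint libraries held 7162305, 5619539 and 4611390 reads on genes, and the mRNA libraries held 6617457, 21620993 and 23136595. The shallow mRNA library of clone 28 made 1 read worth 2.69 normalized counts, and the TE of that clone was spread more widely over genes (SD 1.34 against 1.13 and 1.17). Across the 9418 genes, the TE of clone 28 correlated with that of clones 29 and 36 at r = 0.873 and 0.852, and clones 29 and 36 correlated at 0.953, with genes rather than samples as points. mRNA of the IL-3 receptor chains Csf2rb and Il3ra, of Ptprc and of Cd79a was present at means of 33338, 861, 8109 and 810.0 normalized counts, while Pax5, Ebf1, Rag1, Dntt and Il7r of the B lineage were listed at 0 in every WT library. Of 16 markers of pro-B cells and IL-3 dependence, 6 reached a mean of 10 counts and 8 were at 0. Gata2, of mast cells and basophils, stood at 22811, while Kit was at 0. Summed T cell markers came to 26.9, 15.7 and 11.0 counts and summed erythroid markers to 228, 33.8 and 42.3. The mRNA table gave Rpl10 4501, 2345 and 2230.2 normalized counts and the footprint libraries gave 2605, 1597 and 1732, for a TE of 0.92, 1.25 and 1.45. All 30-base windows of its coding sequence also occur at another place of the mouse genome (GRCm38, exact matches), so the Rpl10 values are uncertain, and the share of reads from the human transgene was not tested.

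Footprint density followed mRNA density across genes (r = 0.841, rho = 0.828), and the ratio between them varied widely. From the 5th to the 95th percentile, TE ran from -1.87 to 1.79, a 12.7-fold span, whereas the median SD between clones was 0.30. TE was above the median gene in all 3 clones for 3681 genes and below it in all 3 for 3682. With limma and Benjamini-Hochberg adjustment at a threshold of 0.1, 6594 of 9418 genes (70%) differed from the median gene in either direction. Of these, 1555 genes (16.5% of those tested) were more than 2-fold above and 1676 (17.8%) more than 2-fold below, and these shares are the background for the classes that follow. Centred on the summed densities in place of the median gene, TE was lower by 0.31, and 985 genes were above and 2463 below, so that 28.6% of 2-fold calls were above against 48.1%. The counts hardly moved with the lengths used, but the genes did: with 1 transcript per gene in place of the union of exons, 958 of 1466 genes above and 1210 of 1691 below were among the calls just given, and with no length correction 642 of 1318 and 997 of 1677. Values under these 2 settings are therefore given beside many of the named genes.

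**Figure D1:**
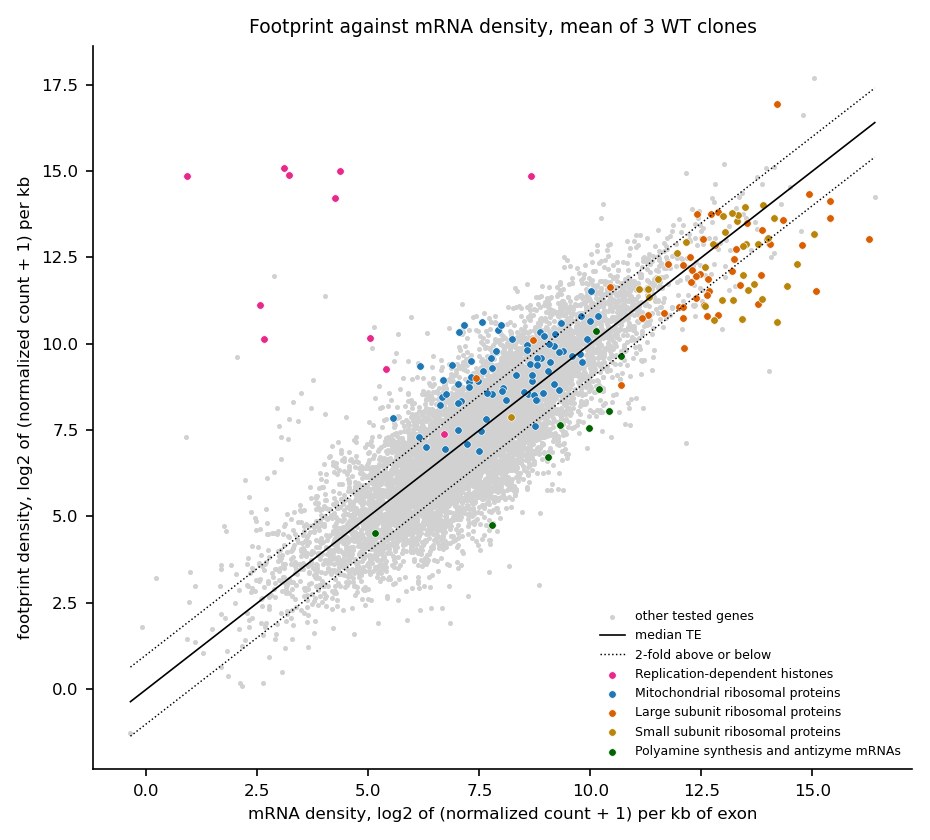
Mean footprint density (log2 of normalized count + 1 per kb of counted coding sequence, vertical axis) against mean mRNA density (log2 of normalized count + 1 per kb of exon, horizontal axis) over the 3 WT clones, 1 point for each of 9418 genes, with 5 classes coloured, a solid line at the median TE and dotted lines 2-fold from it. Replication-dependent histone genes lie far above the lines, mostly at low mRNA density, and ribosomal protein genes lie at high mRNA density, mostly under the median.

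The 46 gene lists covered 1545 tested genes in 45 classes, the 13 mitochondrially encoded genes having no footprint values. The class median was above 0 in all 3 clones for 24 classes and below 0 in all 3 for 11. Mean class medians over 0.5 were found for 17 classes and under -0.5 for 8. The classes with the fewest footprints for their mRNA were the polyamine mRNAs, the TOP mRNAs outside the ribosome, the Zfp zinc finger genes, the uORF mRNAs, ribosomal proteins of both subunits, chromatin modifiers and nonsense-mediated decay factors. The classes with the most were histones, glycolysis enzymes, respiratory chain subunits, mitochondrial ribosomal proteins, granule proteins and the proteasome. No test of a class against the median gene was run, since its members are not replicates.

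**Figure D2:**
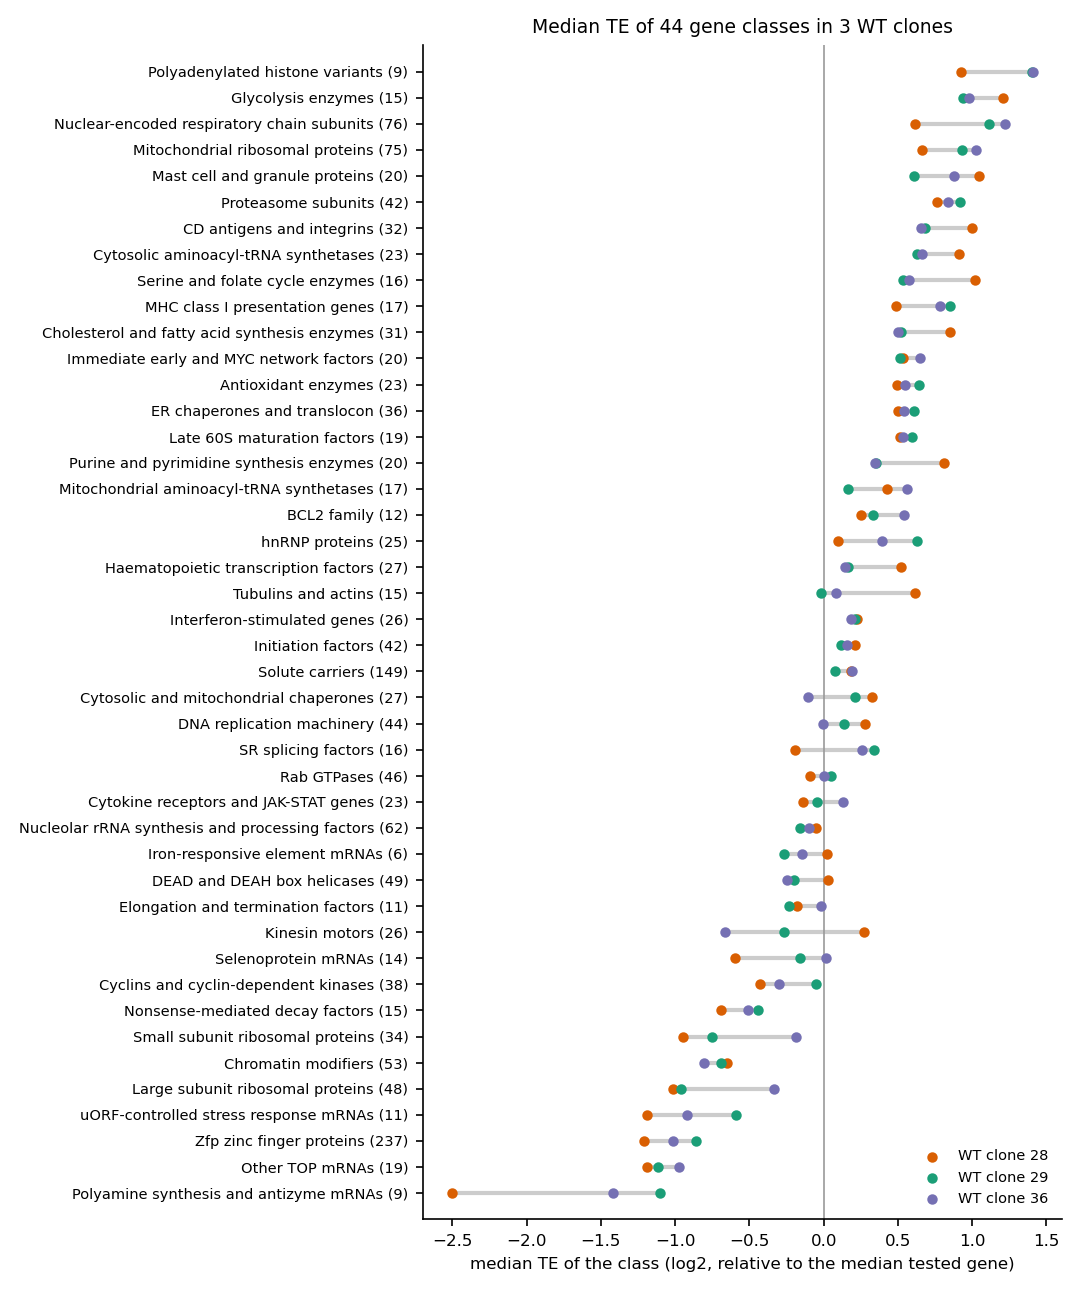
Median TE (log2, relative to the median tested gene) of each gene class in the 3 WT clones, 1 point per clone joined by a grey bar, classes ordered by their mean, tested members in brackets. Replication-dependent histones, at 7.81 to 9.35, are left out for scale. Polyamine mRNAs are lowest, from -2.50 to -1.11, and polyadenylated histone variants highest, from 0.93 to 1.41.

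The replication-dependent histones had the highest ratios of all. Their mRNAs are made in S phase and end in a conserved stem-loop instead of a poly(A) tail. The mRNA libraries were made from poly(A) RNA, so how much of this class reflects capture and how much translation cannot be told apart. All histone genes of the list took 2.38, 1.57 and 2.04% of footprints but 0.0104, 0.0048 and 0.0064% of mRNA counts. Of 50 in both tables, 11 could be tested, and the other 39 had a mean mRNA count under 10 although their mean footprint counts had a median of 388 and reached 6538. The 11 had median TEs of 8.56, 7.81 and 9.35 in the 3 clones, and 10 were above by more than 2-fold. Their class median ran from 6.21 with at least 10 counts in each library to 10.30 in the 2 genes with unique coding windows. Because every member passed the filter only with a minimum of mRNA counts, these 11 are not a sample of the class.

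Linker histone H1.3, Hist1h1d (ENSMUSG00000052565.7, chr13:23553262-23560686, GRCm38), had 25411, 13333 and 16565 footprint counts against 10.7, 14 and 14.9 mRNA counts. Its TE of 13.93 ± 0.63 (adjusted p = 0.000641, limma) was the highest of all genes, and it was 11.96 with no length correction, as the annotated exons of this gene span 7425 bases and its coding sequence 663. Hist1h1e, the gene of H1.4, had 24340.1, 14394 and 16504 footprint counts and 53.7, 9.9 and 8.62 mRNA counts, the highest of them in clone 28. Its TE was 10.43, 12.09 and 12.48, with a mean of 12.29 without clone 28. Hist1h1b and Hist1h1a, also linker histones, reached mean TEs of 10.65 and 9.99, and the H4 gene Hist1h4d reached 11.99. Without clone 36, Hist1h1b came to 9.91 and Hist1h4d to 11.38. The 5 genes had SDs of 0.63 to 1.29 between clones, wider than the 0.30 of the median gene.

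The stem-loop itself was looked for as 6 paired bases starting with GG around TTTC or TTTT, on the strand of the gene, within 150 bases after the stop codon. It was present in 10 of the 11 tested replication-dependent histones, in 0 of 9 polyadenylated histone variants and in 12 of all 9418 tested genes (0.127%). The member without it was Hist2h2be, at a TE of 0.70, the lowest of the 11, and -0.70 with no length correction. Capitals mark the stem and loop in these GRCm38 sequences, shown because the search found the element in the first of these histone classes only:
Hist1h1d (chr13:23555783-23555806, plus strand): aaacGGCTCTTTTCAGAGCCaccc
Hist1h1e (chr13:23621778-23621801, minus strand): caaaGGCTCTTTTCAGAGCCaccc
Hist1h4d (chr13:23581946-23581969, plus strand): caaaGGCCCTTTTCAGGGCCacta
Hist1h4i (chr13:22040962-22040985, minus strand): taaaGGCCCTTTTTAGGGCCacca

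Histone variants are made outside S phase too and carry poly(A) tails. Their median TEs were 0.93, 1.40 and 1.41, far under the replication-dependent genes but still above the median gene, with 6 of 9 more than 2-fold above and 0 below. H2afx, whose protein marks broken DNA, had a TE of 3.60, 3.78 and 3.94. This gene also gives a second mRNA that ends in a stem-loop, which the search did not find. H2afx is neither among the genes with unique coding windows nor among those without exon overlap. H3f3a, encoding H3.3, was at 2.84 ± 0.10 (adjusted p = 0.000215), with 97.8% of its coding windows found elsewhere. H2afy, the macroH2A gene, had a mean TE of 0.45 that turned to -0.47 with no length correction and -0.59 with 1 transcript per gene. The class median of the variants ran from 0.30 to 1.43 over the alternative settings, the lowest with no length correction. The 4 variants without repeated windows or exon overlap had a median of 0.53.

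Nuclear genes for mitochondrial proteins carried many footprints. The respiratory chain makes ATP from nutrients and is built from short nuclear-encoded subunits together with a few made in the organelle. Of 76 nuclear-encoded subunits, 35 were more than 2-fold above the median gene and 1 below, against 16.5% and 17.8% of all genes, and the class medians were 0.61, 1.11 and 1.22. The complex I subunit Ndufb2 had 323, 378 and 391 footprint counts against 220.2, 189 and 177 mRNA counts and a TE of 4.96, 5.50 and 5.65 (adjusted p = 0.000197). The footprint counts of this gene were similar in the 3 clones. Its mean TE of 5.37 fell to 2.55 with no length correction, and Ndufb2 is not among the genes with unique coding windows. Atp5e, the epsilon subunit of the ATP synthase, had a mean TE of 3.39 ± 0.44, and 0.84 without length correction. The single member below was Cox7a2l, a factor of supercomplex assembly, with 40.1, 51 and 50.1 footprint counts against 7251, 6582 and 6414 mRNA counts and a TE of -5.41, -4.84 and -4.81. Without clone 36 its TE was -5.12 and no longer passed the threshold with 2 clones left (adjusted p = 0.189, over all alternatives 2.84e-90 to 0.189), and 56.9% of its coding windows occur elsewhere.

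The mitochondrial ribosome, which translates the mRNAs of the organelle, had values like those of the respiratory chain. Its 75 tested proteins had medians of 0.67, 0.93 and 1.03, with 34 above and 1 below. Mrps17 of the small subunit had 512, 354 and 493 footprint counts for 1208, 758 and 863 mRNA counts, a TE of 3.40 ± 0.27 (adjusted p = 0.000197), and Mrpl17 of the large subunit had 3.29 ± 0.44. With no length correction these were 0.61 and 1.23, the former no longer above 2-fold. Mrpl41 was the member below, at -1.13 ± 0.019, a call lost with no length correction (-0.38). The mitochondrial aminoacyl-tRNA synthetases, which charge the tRNAs of the organelle, had lower medians of 0.43, 0.16 and 0.56 with 2 of 17 above and 1 below. Over the alternatives the class median of the mitochondrial ribosome ran from 0.54 to 0.98 and that of the respiratory chain from 0.67 to 1.17.

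The proteasome degrades ubiquitin-marked proteins. Its 42 tested subunits had medians of 0.76, 0.92 and 0.84, with 14 above and 1 below. Psmc2, an ATPase of its regulatory particle, had 2709, 2103 and 2531 footprint counts, 1982, 1871 and 2259 mRNA counts and a TE of 2.15 ± 0.11. Psme4, an activator of the proteasome, was the member below at -1.12 ± 0.17, a call lost with no length correction (-0.02). The 23 cytosolic aminoacyl-tRNA synthetases and their scaffolds, which supply charged tRNAs, had medians of 0.91, 0.63 and 0.66, and 8 were above and 0 below. The scaffold Aimp2 was at 2.16 ± 0.23 (adjusted p = 0.000292), and Farsb, a subunit of phenylalanyl-tRNA synthetase, had -0.39, with the opposite sign at 0.73 when lengths were left out.

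Glycolysis had medians of 1.21, 0.94 and 0.98, and 7 of its 15 tested enzymes were above and 0 below. Pfkp, a phosphofructokinase of the committed step, had 4364, 4145 and 2898 footprint counts for 4439, 5454 and 4996 mRNA counts, at a TE of 1.99 ± 0.33, and its ratio with 1 transcript per gene was 1.03. Gapdh had 1.60 ± 0.33 and Pgk1 -0.41 ± 0.23, 2 genes with 98.5 and 100% of their coding windows elsewhere. Gapdh was at 0.47 with 1 transcript per gene, and Pgk1 turned to 0.34 with no length correction. Cholesterol and fatty acid synthesis had 10 of 31 above and 1 below, with medians of 0.85, 0.52 and 0.50. Scd1, the stearoyl-CoA desaturase, was at 5.21, 3.25 and 3.36, clone 28 the highest, and at 3.30 without that clone. Idi1, an isomerase of the mevalonate pathway, was at -2.06 ± 0.35 with 89.3% of its windows elsewhere. Serine and folate enzymes (4 of 16 above, 1 below) had medians of 1.02, 0.54 and 0.57, with thymidylate synthase (Tyms) at 1.85 ± 0.12. Purine and pyrimidine synthesis (5 of 20 above, 0 below) had medians of 0.81, 0.35 and 0.35, led by Adsl, the adenylosuccinate lyase, at 2.16 ± 0.48.

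Surface antigens and integrins had 13 of 32 above and 1 below, with medians of 1.00, 0.68 and 0.66. The phosphatase CD45 (Ptprc) carried 6877, 8987 and 5365 footprint counts for 4871, 11845 and 7611 mRNA counts, TE 2.13 ± 0.49, and 0.85 with 1 transcript. Itgae, an integrin alpha chain, was the member below at -2.42 ± 0.19. Among 20 mast cell and granule proteins, 7 were above and 1 below, with medians of 1.05, 0.61 and 0.88, and the lysosomal protease cathepsin B (Ctsb) was at 2.22 ± 0.054 (adjusted p = 0.000243). MHC class I presentation had 8 of 17 above and 1 below, medians 0.49, 0.85 and 0.78, with the peptide-loading factor tapasin (Tapbp) at 1.96 ± 0.17, 29% of whose exons overlap another gene. The 8 MHC class I genes without repeated windows or exon overlap had a median of 0.12. The ER chaperones and translocon had 10 of 36 above and 1 below, medians 0.50, 0.61 and 0.54. Sec61a1, the channel of the translocon, was at 1.83 ± 0.13, and Ssr1 at 1.79 turned to -0.17 with 1 transcript per gene.

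The polyamine class had the lowest ratios. Polyamines are small cations needed for growth. Ornithine decarboxylase (Odc1) and S-adenosylmethionine decarboxylase (Amd1) are the key enzymes, antizymes (Oaz1, Oaz2) remove Odc1, and Azin1 binds antizyme in its place. Of 9 tested members 7 were more than 2-fold below the median gene and 0 above, and class medians were -2.50, -1.11 and -1.42, lowest in clone 28. Without clone 28 the class median was -1.26. Odc1 (ENSMUSG00000011179.8) had 402, 265 and 465 footprint counts for 6977, 2624 and 5613 mRNA counts and Amd1 had 16.2, 40.6 and 21.1 for 916, 647 and 809. Their TEs were -2.89, -1.99 and -2.27 and -3.88, -2.02 and -3.24, below the median gene in each clone (adjusted p = 0.000635 and 0.00104, limma). The coding windows of these 2 genes are found elsewhere at 83.1 and 100%, which leaves their footprint counts uncertain.

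Azin1 is the member without that limit, with 0% of its windows elsewhere. It had 213, 227 and 293 footprint counts for 7522, 4697 and 6894 mRNA counts, and its TE of -2.92, -2.06 and -2.24 (adjusted p = 0.000628) was as low as that of Odc1. The antizymes, whose full proteins need a frameshift, were at -2.01, -0.74 and -0.37 for Oaz1 and -2.32 ± 0.64 for Oaz2. Clone 28 was the lowest for Oaz1, whose mean was -0.56, under 2-fold, without it. The acetylase Sat1 and spermine synthase Sms were at -1.52 ± 0.53 and -1.66 ± 0.74. The oxidase Paox had a TE of -1.38, -0.51 and 0.065, did not reach 2-fold and turned to 0.11 with 1 transcript per gene. Spermidine synthase (Srm) was the member above 0, at 0.24 ± 0.067 (adjusted p = 0.203), and it turned to -0.071 when TE was centred on summed densities.

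An ATG upstream of the coding sequence was annotated in Amd1 (1), Azin1 (3), Odc1 (2), Sat1 (2) and Sms (4), and in none of Oaz1, Oaz2, Paox and Srm. The shortest complete upstream frame of 3 of them is printed from start to stop codon, with the ATG in capitals (GRCm38, GENCODE vM21), as the short frame of Amd1 is a known sensor of polyamines:
Amd1 (chr10:40302155-40302175, minus strand): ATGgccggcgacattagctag
Odc1 (chr12:17544921-17544947, plus strand): ATGacgacgtgctcggcgtataagtag
Azin1 (chr15:38514482-38514505, minus strand): ATGatagggggttccatctcctaa

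The uORF mRNAs of the integrated stress response are known to be held back by short upstream frames in unstressed cells and released when initiation factor eIF2 is phosphorylated. Of 11 tested, 4 were more than 2-fold below and 2 above, with medians of -1.19, -0.59 and -0.92. Atf4, the transcription factor of this response, had 1681, 2938 and 2726 footprint counts and 18486, 10161 and 14104 mRNA counts, for a TE of -2.26, -0.50 and -1.07 (mean -1.28, SE 0.32, adjusted p = 0.0113). Clone 28 was the lowest of the 3, and without it the mean of Atf4 was -0.78, under 2-fold. Atf5, a related factor, had a TE of -3.69, -1.69 and -1.09, again lowest in clone 28, and -1.39 without that clone. Ppp1r15a, the phosphatase subunit that ends the response, was at -2.25 ± 0.35 and the pro-apoptotic factor Ddit3 (CHOP) at -1.81, -0.97 and -0.94, both below in all clones. Without clone 28, the lowest, Ddit3 was at -0.96, under 2-fold.

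Cebpb and Eprs were the members of this list with no ATG in the 5′ UTR of the 1 transcript searched per gene. These were the 2 with a TE above 0. Frames that start at another codon, or inside the annotated coding sequence, were not searched, so neither gene is shown to lack a uORF. Cebpb, a transcription factor, had 1214, 763 and 1069 footprint counts for 975, 391 and 383 mRNA counts and a TE of 1.12, 1.86 and 2.39. Of its exon bases, 20.7% overlap another gene. Eprs, a tRNA synthetase, was at 1.67 ± 0.69, and at 0.36 with 1 transcript per gene, where its call was lost. The other 9 members had 1 to 18 upstream ATGs and mean TEs from -2.25 to -0.10. Ibtk (-1.38, -0.59 and -1.03 by clone), Slc35a4 (mean -0.95), Ppp1r15b (-0.90) and Ifrd1 (-0.37) did not reach 2-fold, and Sesn2 was at -0.10 (adjusted p = 0.584) and turned to 0.21 with no length correction and 0.47 with 1 transcript per gene. The shortest complete upstream frames of 3 members, ATG in capitals, were these:
Atf4 (chr15:80255582-80255593, plus strand): ATGgcgtattag
Atf5 (chr7:44816526-44816537, minus strand): ATGgctctgtag
Ibtk (chr9:85744033-85744044, minus strand): ATGgctatttga

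**Figure D3:**
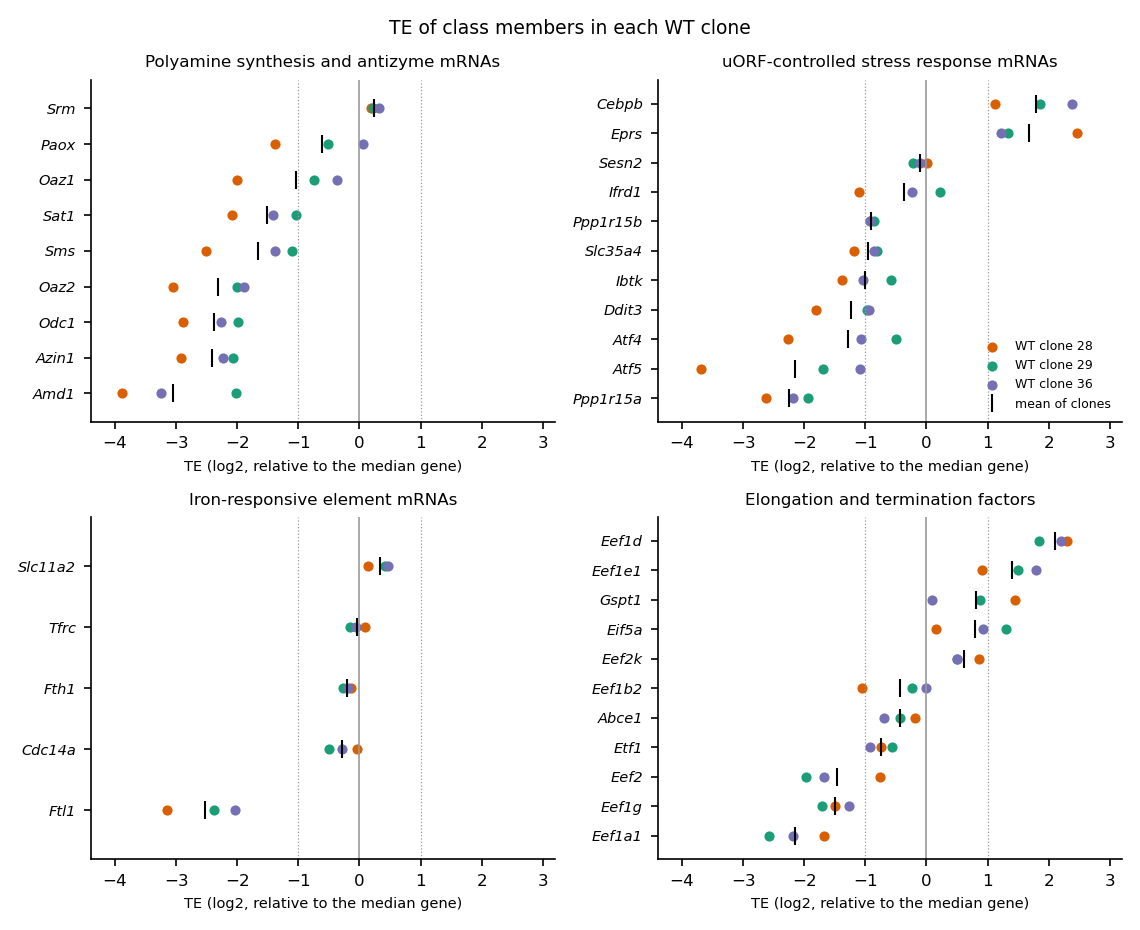
TE (log2, relative to the median gene) in each of the 3 WT clones for members of the polyamine, uORF, iron-responsive element and elongation classes, 1 point per clone, with a vertical tick at the mean and dotted lines at 2-fold. Most polyamine and uORF members lie below 0 in all 3 clones, whereas iron-responsive members other than Ftl1 lie around 0 and elongation factors lie on both sides.

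The ferritins Fth1 and Ftl1 store iron, and their 5′ UTRs hold a hairpin that iron regulatory proteins bind when iron is scarce. Fth1 had 2355, 2383 and 2784 footprint counts and 17041, 20164 and 22376 mRNA counts, with a TE of -0.14, -0.27 and -0.18 that did not pass the threshold (adjusted p = 0.289). It did pass with no length correction, at -1.32, and with 1 transcript per gene, at -0.78. Ftl1 had 474, 691 and 944 and 10999, 10028 and 10889 and a TE of -3.15, -2.38 and -2.03 (adjusted p = 0.000682), although 87% of its coding windows occur elsewhere and 34.6% of its exons overlap another gene. Ftl1 lay below Fth1 in every clone. Tfrc, the transferrin receptor, whose hairpins lie in the 3′ UTR and govern mRNA stability, was at -0.039 ± 0.12, and at 0.18 and 0.24 under the same 2 settings. Slc11a2 and Cdc14a were at 0.34 and -0.28, neither past the threshold. With 1 transcript per gene they were at -0.028 and -1.15, and Cdc14a was at -1.43 with no length correction, past the threshold and 2-fold in both cases. Class medians were 0.022, -0.27 and -0.15, and the mean class median was -0.62 with no length correction.

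A CAGTG loop on a 5-base stem with a C before it was found in the 5′ UTR of 11 of 9229 genes (0.119%), 3 of them in the list, and in the 3′ UTR of 54 of 9415 (0.574%), 1 of them in the list. Capitals mark the loop in these GRCm38 sequences, in which the ferritin hairpins are nearly alike:
Fth1 5′ UTR (chr19:9982736-9982757, plus strand): tgcttcaaCAGTGcttgaacgg
Ftl1 5′ UTR (chr7:45459782-45459803, minus strand): tgcttcaaCAGTGtttgaacgg
Tfrc 3′ UTR (chr16:32631223-32631244, plus strand): atcggaagCAGTGccttccata

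Ribosomal protein mRNAs, which carry TOP tracts and are among the most abundant of the cell, had fewer footprints per mRNA than the median gene. Together they took 11.3, 8.84 and 7.82% of mRNA counts and 3.64, 3.54 and 4.34% of footprints. Of 48 large subunit proteins, 20 were more than 2-fold below and 6 above, with medians of -1.01, -0.96 and -0.34. Of 34 small subunit proteins, 13 were below and 0 above, with medians of -0.94, -0.75 and -0.18. In both classes clone 36 was nearest to 0. The acidic stalk protein Rplp0 had 2302, 2565 and 2994 footprint counts for 54409, 66152 and 53363 mRNA counts, a TE of -3.56 ± 0.31 (adjusted p = 0.000651). Rps12 was at -3.58 ± 0.60, and Rps3a1 at -2.74 ± 0.32. At the other end, Rpl41, whose protein is among the shortest known, was at 2.75 ± 0.53, and 0.50 with no length correction. Rps20 (0.71) and Rps28 (0.80) turned to -1.42 and -1.10 when lengths were left out.

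These genes have many processed pseudogenes, and the authors kept reads of mapping quality 10 or more, so footprints of 30 to 33 nt that match copies could be lost. Of 82 tested ribosomal protein genes, 50 had over 90% of their coding windows elsewhere and a median TE of -0.93, and the other 32 had -0.46. Only 6 had under 50%. The 2 small subunit proteins with unique coding windows had a class median of -0.14, and 0 large subunit proteins had such windows. Across the 82 genes, TE and the share of repeated windows had rho = -0.222, a description over genes that share libraries. Among 111 other tested genes with over 90% repeated windows the median TE was -0.33. How much of the low ratio came from lost reads was not tested further.

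TOP mRNAs outside the ribosome had medians of -1.19, -1.11 and -0.97, with 10 of 19 below and 2 above, but the 3 members with unique coding windows had a median of 0.27, of the opposite sign. Tpt1 (TCTP) had 193, 284 and 356 footprint counts against 45866, 36939 and 37424 mRNA counts and a TE of -5.56, -4.60 and -4.28, with 99.5% of its windows elsewhere. Without clone 36 it was at -5.08 and no longer passed the threshold (adjusted p = 0.177, over all alternatives 8.55e-81 to 0.177). Naca, of the nascent polypeptide-associated complex, is largely unique (7.52% elsewhere) and was at -2.54 ± 0.19 (adjusted p = 0.000538). Vim, the intermediate filament vimentin, was above at 2.03 ± 0.45. RefSeq transcription starts (GRCm38.p6) matched 7420 tested genes. A start of C followed by at least 4 of C or T was found at 14 of 61 ribosomal protein genes, 2 of 13 other TOP mRNAs and 216 of all 7420 genes (2.91%). Median TE was -0.16 with such a start and 0.0077 without. The 5 bases before the start and the 25 from it are shown for 4 members, the run in capitals, on their own strand:
Rps6 (chr4:86857343-86857372, minus strand): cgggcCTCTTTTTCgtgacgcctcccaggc
Rps18 (chr17:33955641-33955670, minus strand): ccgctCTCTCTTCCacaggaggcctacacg
Rpl15 (chr14:18270962-18270991, minus strand): gccttCTTCCTTTCCTCTggcggcagccat
Fau (chr19:6057942-6057971, plus strand): cacttCTTCCTCTTTCTTgactccatcttc

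Of 11 elongation and termination factors, 2 were above and 3 below, with medians of -0.18, -0.24 and -0.015. The class median was of the opposite sign, at 0.60, among the 4 members with unique coding windows. Eef1a1, which brings aminoacyl-tRNA to the ribosome and is a TOP mRNA, had 31101, 21215 and 26074 footprint counts for 179929, 244023 and 230890.0 mRNA counts and a TE of -2.15 ± 0.45, with 88.4% of its windows elsewhere. Eef2, the translocase, was at -1.47 ± 0.63, a call lost with no length correction (-0.22), and Eef1g, a subunit of the exchange factor, at -1.49 ± 0.22 with 93.9% of its windows elsewhere. Eef1d of the same exchange factor was above at 2.11 ± 0.24 (adjusted p = 0.000301), as was Eef1e1 at 1.40 ± 0.45, a call lost with no length correction (0.23). Abce1, Eef1b2, Etf1, Eif5a, Gspt1 and Eef2k did not reach 2-fold, at -0.44, -0.44, -0.74, 0.80, 0.80 and 0.62, and Eif5a turned to -0.12 with no length correction. Eef1b2 came to 0.0056 with 1 transcript per gene. The 42 initiation factors had medians near 0 (0.21, 0.12 and 0.16), with 9 above and 5 below. Among them the X-linked eIF2 subunit Eif2s3x was at -2.58 ± 0.41, with 90.7% of its windows elsewhere, and the cap-binding homologue Eif4e2 at 1.90 ± 0.41. Late 60S maturation factors had medians of 0.52, 0.59 and 0.54 (3 of 19 above, 1 below), and nucleolar factors of rRNA synthesis -0.049, -0.16 and -0.10 (5 of 62 above, 4 below).

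Zfp genes encode zinc finger proteins that mostly bind DNA. Of the 264 with values in both assays, 237 were tested, 118 were more than 2-fold below the median gene and 10 above, and medians were -1.21, -0.86 and -1.01. Zfp788 had 15.3, 17.7 and 6.59 footprint counts for 389, 388 and 335 mRNA counts, TE -4.07 ± 0.56, and Zfp942 was at -4.32 ± 0.68. Zfp593 was the highest at 4.06 ± 0.93, but 77.9% of its exons overlap another gene. In the 53 chromatin modifiers, 20 were below and 0 above, with medians of -0.65, -0.69 and -0.81 and a median coding length of 5346 bases. Suz12, a core subunit of the Polycomb complex PRC2, was at -2.04 ± 0.60, and the class median was -0.12 with no length correction. Nonsense-mediated decay factors had medians of -0.69, -0.44 and -0.51 (3 of 15 below, 2 above, near the background of 17.8% and 16.5%), and their class median was -0.0078 with no length correction. Upf2, a core factor of the pathway, was at -1.58 ± 0.26, and Rbm8a, of the exon junction complex, was above at 1.46 ± 0.33.

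Among 23 cytokine receptor and JAK-STAT genes (2 above, 5 below, medians -0.14, -0.042 and 0.13), Jak2, the kinase of the IL-3 receptor, had 113, 359 and 211 footprint counts for 2119, 3702 and 2829.7 mRNA counts and a TE of -3.69, -2.73 and -3.10 (adjusted p = 0.000634). Its partners Stat5a and Stat3 were above, at 1.06 ± 0.21 and 1.62 ± 0.24, and the feedback inhibitor Socs2 was below at -2.41 ± 0.55. In the cyclin class (8 of 38 above, 8 below, medians -0.43, -0.051 and -0.30), the CDK inhibitor p21 (Cdkn1a) had 2455, 1689.7 and 2551 footprint counts for 4044, 3050.1 and 4302 mRNA counts and a TE of 2.32 ± 0.056. Cdk6 was at 5.23, 2.88 and 2.82, clone 28 the highest, and at 2.85 without it. Ccni was at -3.03 ± 1.00. Of the 12 BCL2 genes, with medians of 0.25, 0.33 and 0.54, 1 was above and 1 below: Bid at 1.07 ± 0.081, which turned to -0.042 with no length correction, and the survival factor Bcl2l2 at -2.94 ± 0.54. The value of Bcl2l2 rests on 9.55, 10.4 and 17.1 footprint counts, near the filter of 10, and 13.3% of its exon bases overlap another gene. Mcl1 was at -0.03, and at 0.54 with 1 transcript per gene. Among antioxidant enzymes (9 of 23 above, 1 below, medians 0.50, 0.64 and 0.55), mitochondrial superoxide dismutase (Sod2) was at 3.23 ± 0.13 and Gclc, of glutathione synthesis, at -1.80 ± 0.30.

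The remaining classes are given by their counts more than 2-fold above and below, which were 7 and 4 of 27 haematopoietic transcription factors, 4 and 4 of 44 DNA replication genes, and 1 and 6 of 26 kinesins. Solute carriers gave 25 and 21 of 149, Rab GTPases 6 and 6 of 46, DEAD and DEAH box helicases 3 and 11 of 49, and selenoprotein mRNAs 2 and 2 of 14. For SR splicing factors they were 2 and 4 of 16, for hnRNP proteins 7 and 3 of 25, for tubulins and actins 4 and 1 of 15, and for chaperones of cytosol and mitochondria 3 and 3 of 27. Interferon-stimulated genes had 2 and 0 of 26, and immediate early and MYC network factors 2 and 1 of 20. The class medians of these last 2 were above 0 in all 3 clones, at 0.22, 0.21 and 0.18 and 0.54, 0.51 and 0.65, although few of their members passed 2-fold. The class medians of haematopoietic transcription factors (0.52, 0.16 and 0.14), hnRNP proteins (0.099, 0.63 and 0.39) and solute carriers (0.18, 0.079 and 0.19) were above 0 in all 3 as well. That of hnRNP proteins was -0.31 with no length correction. Single members stood out in both directions: Runx1, a haematopoietic regulator, at 2.26 ± 0.54, the interferon regulatory factor Irf2 at 2.47 ± 0.29, profilin (Pfn1) at 2.18 ± 0.26, the arginine transporter Slc7a1 at 2.17 ± 0.89, the splicing kinases Clk1 and Clk4 at -1.91 ± 0.33 and -2.01 ± 0.73, and the nucleolar protein Npm1 at -1.53 ± 0.13. Tcf4 (1.83) turned to -0.15 both with no length correction and with 1 transcript per gene.

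Several calls given so far came under 2-fold when lengths were left out, while they kept their direction and an adjusted p under 0.1. Among genes above, Cdkn1a was then at 0.88, Sod2 at 0.88, Tyms at 0.86, Runx1 at 0.77, Eif4e2 at 0.50 and Rbm8a at 0.43. Among genes below, Naca was at -0.96, Eef1g at -0.90, Atf4 at -0.88 and Upf2 at -0.48. With 1 transcript per gene, Stat5a was at 0.68 and Rpl10 at 0.57.

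The properties of the mRNAs differed along TE. Over quintiles of coding length, median TE went from 0.56 in the shortest (138 to 797 bases) through 0.22, -0.0082 and -0.20 to -0.46 in the longest, and the genes more than 2-fold above went from 31.6 to 5.41% (rho = -0.328 across 9418 genes, a description). The sign of this relation rested on the length correction, since rho was 0.0759 without it, and -0.330 with 1 transcript per gene. The mitochondrial classes have short coding sequences (median 438 bases for the respiratory chain and 603 for the mitochondrial ribosome) and the chromatin modifiers long ones, whereas ribosomal proteins are short (476 and 464) and low, against the trend over all genes.

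Upstream ATGs went with lower TE. The 4828 genes with none had a median of 0.15 and 19.2% above and 12.7% below, the 2061 genes with 1 had -0.079, the 1519 genes with 2 to 3 had -0.19, and the 1010 genes with 4 or more had -0.31, with 13.7% above and 28.1% below. This order was the same in each clone, and rho was -0.152, -0.180 with no length correction and -0.133 with 1 transcript per gene. The quintile with the highest 5′ UTR GC content (over 73.5%) had a median of -0.35, while the other quintiles lay between 0.049 and 0.15. 5′ UTR length had rho = -0.0973 and mRNA level rho = -0.0162. Genes with 50 to 100% of their exons overlapping another gene had a median of 0.62, with 41.2% above, and genes with 90 to 100% of coding windows elsewhere had -0.54, with 34.2% below and clone 28 the lowest (-0.71, -0.38 and -0.40).

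**Figure D4:**
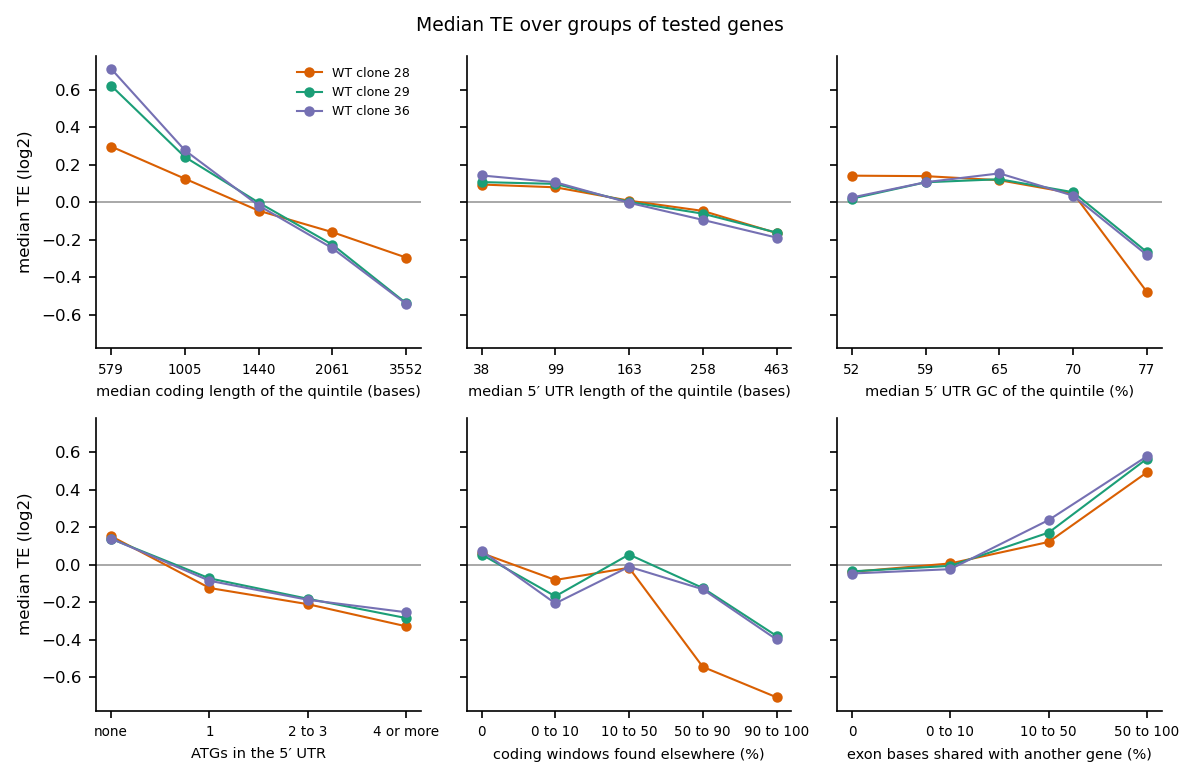
Median TE (log2) in each of the 3 WT clones over bins of coding length, 5′ UTR length, 5′ UTR GC content, upstream ATG number, share of coding windows found elsewhere and share of exon bases in another gene. Median TE is lower with longer coding sequence and with more upstream ATGs in all 3 clones, and is lowest in the top quintile of 5′ UTR GC content.

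The lowest single genes were Gm13225 (-5.82 ± 0.81), Cox7a2l, Zbed4 (-4.93 ± 0.94), Tpt1 and Wdr77 (-4.59 ± 1.05). Gm13225, Zbed4 and Wdr77 dropped out when at least 10 counts were required in each library, so their ratios rest on low counts. They also lack unique coding windows, and Wdr77 is not among the genes without exon overlap. Without clone 36, Cox7a2l, Zbed4, Tpt1 and Wdr77 did not pass the threshold, at TEs of -5.12, -5.23, -5.08 and -4.78. Gm13225 did not pass it without clone 29 (-6.29) or clone 36 (-5.58). The means of Cox7a2l, Zbed4, Tpt1 and Wdr77 over all clones were -5.02, -4.93, -4.81 and -4.59. Their TEs had therefore not moved toward the median gene when clone 36 was left out. The variance of each gene was drawn toward that of genes with similar TE. Over all clones, Cox7a2l had an SE of 0.96 against an SD of 0.34. Of the 100 genes with the lowest TE, 55 had over 10% of coding windows elsewhere, 14 had over 10% of exons overlapping another gene and 37 had neither. Of the 100 highest, the numbers were 28, 43 and 40.

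The R98S clones were set beside the WT clones to see whether these ratios differ with the genotype. TE of single genes was compared by genotype in limma over all 6 clones, and 0 of 9418 genes (0%) passed the threshold in either direction, with 701 at an unadjusted p under 0.05. The authors, using another test (Babel) at a threshold of 0.1, did report genes with changed TE from footprinting. The 0 given here therefore holds for this limma fit only. The 3 R98S clones all lay below the 3 WT clones for 778 genes (8.26%) and all above for 568 (6.03%). The class medians of the genotypes did not overlap in 7 of 45 classes, all lower in R98S. Other TOP mRNAs were at -1.19, -1.11 and -0.97 in WT and -1.52, -1.43 and -1.36 in R98S (clones 11, 13 and 35), and glycolysis at 1.21, 0.94 and 0.98 and 0.43, 0.79 and 0.61. The remaining 5 were initiation factors, cytosolic aminoacyl-tRNA synthetases, late 60S maturation factors, DEAD and DEAH box helicases and interferon-stimulated genes. For each, the exact two-sided permutation test over 6 clones gave p = 0.1, the smallest possible with 3 against 3, and 0.64 after adjustment over 45 classes. In 38 classes the spread among WT clones exceeded the difference between genotypes. Polyamine mRNAs were at -1.60, -1.68 and -1.96 in R98S, Zfp genes at -1.03, -1.03 and -0.85 and the respiratory chain at 0.89, 1.13 and 0.78, each overlapping the WT values.

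**Figure D5:**
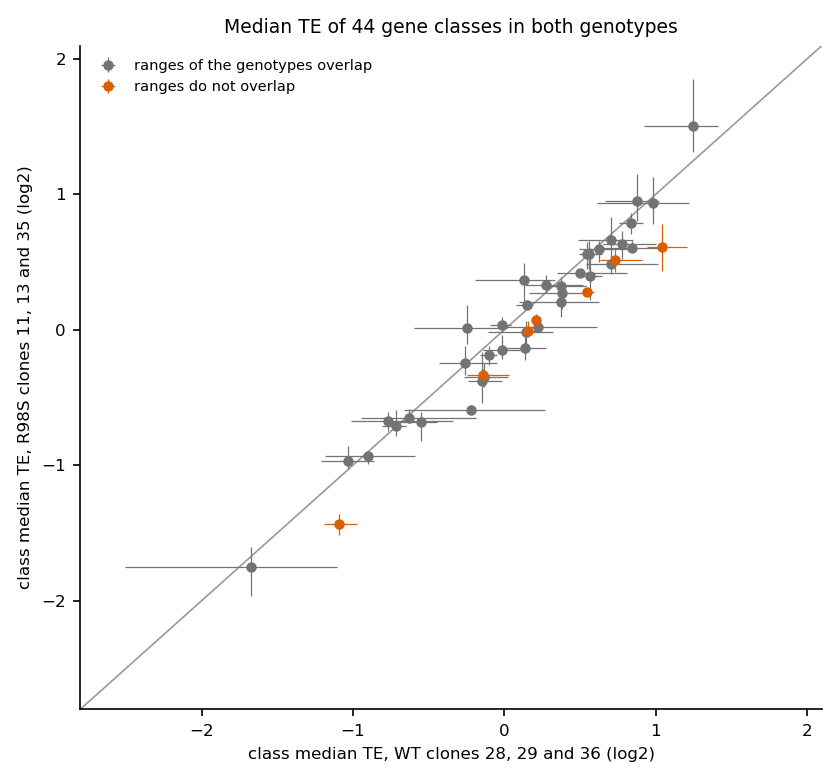
Class medians of TE (log2) in R98S clones (vertical axis, mean of 3) against WT clones (horizontal axis, mean of 3), 1 point per class without the replication-dependent histones, with bars from the lowest to the highest clone, the line of equal values and the 7 classes without overlap in orange. Glycolysis enzymes lie farthest below the line, at 1.04 in WT and 0.61 in R98S.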

How the data were processed

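The authors trimmed reads with fastq-mcf, removed rRNA and tRNA reads with Bowtie2, aligned the rest to mm10 with TopHat2 2.0.11 and kept primary alignments of mapping quality 10 or more. Footprint libraries (RNase I, fragments of 30 to 33 nt, rRNA depleted) pooled 3 technical replicates and were counted on coding sequences without the first 15 and last 5 codons. mRNA libraries were stranded and made from poly(A) RNA, so mRNA without a tail is under-represented. The deposited values are counts divided by DESeq2 size factors, a signal on 2 separate scales, and the reads recovered from them were whole for 100% of values. Genes were joined by symbol (9743 directly, 259 by an older symbol, 78 unmatched), with lengths from GENCODE vM21 on GRCm38, the union of exons for mRNA.

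TE was computed per clone with a pseudocount of 1, in genes with a mean of at least 10 normalized counts in each assay over the WT libraries. A limma 3.58.1 fit (R 4.3.3, intercept only, eBayes with trend) with Benjamini-Hochberg adjustment over all 9418 genes tested TE against 0 at an adjusted p of 0.1, and more than 2-fold means a TE beyond 1 or -1. The trend followed mean TE, so the variance of each gene was drawn toward that of genes with similar TE. An SE therefore does not follow from the SD of the gene alone. Cox7a2l had an SD of 0.34 over clones but an SE of 0.96, and Amd1 had 0.95 but 0.44. edgeR 4.0.16 and DESeq2 1.42.0 on the recovered reads were alternatives. Clone numbers pair the libraries, since both came from the same clone. Deviations of the 2 assays from their group means correlated at r = 0.331, 0.708 and 0.411. Statistics were tested on simulated data in which most genes had a TE of 0. Those data lacked the wide range of TE seen here, so they do not test the p-values of genes far from the median.

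The gene classes and comparisons were chosen with earlier results of these data known, so counts of a class are a description. The text names every tested member of the uORF, polyamine and elongation classes, and of the iron-responsive class all but 1, and some other results are not reported here. In other classes it names from the 2 highest and 2 lowest members, and it adds the 5 highest and 5 lowest called genes and Rpl10. Columns of R98S clones were used where that genotype is named. They also entered 1 alternative setting, which took the spread between clones from all 6 clones and called 7023 genes.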

Additional observations from a re-analysis of the deposited data

How the results depend on the processing

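Of 60 alternative counts of called genes, 59 stayed within 1.5 times the value reported. The exception was the count above the median gene when TE was centred on summed densities, at 985 instead of 1555. Treating the libraries as unpaired (no replicate block) gave 5668 called genes, 1532 above and 1665 below, and the pairing changed no count by over 1.5 times. Leaving out 1 clone gave 5491 to 7394 called, 1535 to 1629 above and 1583 to 1778 below. edgeR called 6500 and DESeq2 6206 genes. The alternative without genes that overlap another exon was chosen after seeing the data and left 1309 above and 1461 below among 8132 genes.

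Of 899 alternative class medians, 38 (in 18 classes) were of the other sign than the value reported, 13 of them through the lengths. Of the 38, 5 came from classes with the same sign in all 3 clones and a mean beyond 0.25: Other TOP mRNAs (0.27 with unique windows), hnRNP proteins (-0.31 with no length correction, -0.16 with 1 transcript per gene), Haematopoietic transcription factors (-0.038 on summed densities) and the BCL2 family (-0.21 with no length correction). Apart from these 5, 778 medians moved by at most 1 SD between clones and 116 by more. Of 3885 alternative values of named genes, 100 lost their call, 45 gained one and 45 were of the other sign, 39 of these through the lengths. The other 6 were of Mcl1, Phgdh, Srm and Tfrc, none past the threshold in the values reported. Among called genes 25 values changed sign, all through the lengths. With no length correction these were Bcl2l11 (-1.33), Bid (-0.042), Eif1ax (-0.35), Eif5a (-0.12), Farsb (0.73), Fosl2 (-0.69), H2afy (-0.47), Hexa (0.22), Hist2h2be (-0.70), Hnrnpr (-0.23), Impdh2 (0.13), Ndufb9 (0.041), Pgk1 (0.34), Rab14 (-0.73), Rps20 (-1.42), Rps28 (-1.10), Sep15 (-0.80) and Tcf4 (-0.15). With 1 transcript per gene they were H2afy (-0.59), Paox (0.11), Psme3 (0.12), Rps28 (-0.61), Sep15 (-0.046), Ssr1 (-0.17) and Tcf4 (-0.15).

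The mRNA library of clone 28 was the shallowest, and no count interval beyond the spread of 3 clones was computed. Footprints of repeated coding windows and reads of overlapping genes limit single values at both ends of TE. Genes named without that limit that also lack unique coding windows include Scd1, Tyms, Eef1d, Stat5a, Cdk6, Ccni, Socs2, Npm1 and Rbm8a. The same holds for Ppp1r15a, Slc35a4, Eef2, Fth1, Mrpl41 and Zfp942, so their footprint counts are uncertain too.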

Other observations

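The 13 protein-coding genes of the mitochondrial genome were in the mRNA table and none was in the footprint table. mt-Co1, a cytochrome c oxidase subunit, had 213614, 206896 and 149232 normalized mRNA counts in clones 28, 29 and 36. Others of the 13 had few or no counts there, among them mt-Co3 with 10.7, 12.4 and 11.8, mt-Co2 with 0, 3.30 and 3.13, and mt-Nd4l with 0 in each. Beyond them, 95 of 8688 protein-coding genes with a mean of at least 100 normalized mRNA counts were listed in the mRNA table only, and their translation was not analysed here.

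Lars2, the mitochondrial leucyl-tRNA synthetase, had 41164, 18423 and 5142 mRNA counts and 552, 351 and 429.6 footprint counts. Its TE was -4.27, -3.67 and -1.53 and its mean was -3.16, or -3.97 without clone 36. None of its coding windows occur elsewhere, but its UTRs, which also enter the mRNA counts, were not checked for repeats. The mRNA values spread more widely between clones than the footprint values, and the 2 TEs of clones 28 and 29 lay well under that of clone 36. Rab28, a small GTPase, was likewise set by single clones, with a mean TE of -1.63 that was -0.98 without clone 28 and -2.24 without clone 29.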
